A study of Mus musculus with 6 samples.

Results

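The 33 genes described here make up glucose uptake and glycolysis, the pentose phosphate pathway and the transcriptional response to low oxygen. They were chosen by name, and each was taken as the row of its symbol in the deposited table, out of 23282 symbols, with the most abundant transcript, averaged over the 6 libraries, standing for a symbol that has several. The RNA, selected for poly(A), came from peritoneal macrophages that female C57BL/6 mice recruit after thioglycollate. The cells had received siRNA against Smyd5, siRNA against Phf2 or a control siRNA (siSmyd5, siPhf2 and siCtl in the labels) for 48 h, and then KLA at 100 ng/ml or vehicle for 4 h. KLA, given as Kdo2-LipidA in the labels, is a defined lipid A, the part of endotoxin that the receptor TLR4 senses. Each combination of siRNA and agent had 1 library, so no group has replicates, and whether libraries came from separate animals is not given in the sources used here. The study asked how 2 enzymes of histone H4 methylation, the methyltransferase Smyd5 and the demethylase Phf2, act on inflammatory genes. These are elicited cells of the peritoneal cavity that received siRNA, and no untransfected cells were in the series.

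Glycolysis splits glucose into pyruvate and yields ATP without oxygen, and the pentose phosphate pathway draws on its first intermediate to make NADPH and ribose phosphate. Macrophages that meet a TLR4 ligand are known for a switch to aerobic glycolysis with lactate release. Hypoxia-inducible factors are pairs of an oxygen-labile alpha subunit and the constant partner Arnt, and they bind the core letters ACGTG or GCGTG in the promoters of many genes of glucose metabolism.

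The promoters of 3 members that rose with KLA (Slc2a6, Hk2, Hif1a) and of 1 that was lower with KLA in all 3 siRNA arms (Taldo1) are shown for these letters (RefSeq, GRCm38.p6, 250 bases before to 50 bases after the gene start, 5′ to 3′ on the gene's strand). Capitals mark ACGTG or GCGTG on either strand, so CACGT and CACGC are the same letters read on the other strand. Slc2a6 lies at chr2:27027949-27028248 (minus strand), Hk2 at chr6:82774405-82774704 (minus strand), Hif1a at chr12:73907617-73907916 (plus strand) and Taldo1 at chr7:141391910-141392209 (plus strand).
Slc2a6: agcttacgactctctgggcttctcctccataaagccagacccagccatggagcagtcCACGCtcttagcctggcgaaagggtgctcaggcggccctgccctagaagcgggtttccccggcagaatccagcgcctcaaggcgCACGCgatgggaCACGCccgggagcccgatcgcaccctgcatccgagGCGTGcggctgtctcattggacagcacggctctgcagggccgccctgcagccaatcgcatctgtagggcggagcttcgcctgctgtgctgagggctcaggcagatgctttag
Hk2: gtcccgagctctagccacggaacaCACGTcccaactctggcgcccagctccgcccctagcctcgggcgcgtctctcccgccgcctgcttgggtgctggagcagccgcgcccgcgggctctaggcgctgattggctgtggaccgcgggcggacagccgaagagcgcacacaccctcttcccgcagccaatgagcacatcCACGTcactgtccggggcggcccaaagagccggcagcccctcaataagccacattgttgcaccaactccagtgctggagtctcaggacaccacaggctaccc
Hif1a: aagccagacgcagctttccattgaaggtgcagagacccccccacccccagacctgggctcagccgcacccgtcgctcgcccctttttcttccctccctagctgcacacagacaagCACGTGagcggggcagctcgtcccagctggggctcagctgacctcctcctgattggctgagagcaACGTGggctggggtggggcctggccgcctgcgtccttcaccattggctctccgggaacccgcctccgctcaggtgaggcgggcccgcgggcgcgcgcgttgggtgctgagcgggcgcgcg
Taldo1: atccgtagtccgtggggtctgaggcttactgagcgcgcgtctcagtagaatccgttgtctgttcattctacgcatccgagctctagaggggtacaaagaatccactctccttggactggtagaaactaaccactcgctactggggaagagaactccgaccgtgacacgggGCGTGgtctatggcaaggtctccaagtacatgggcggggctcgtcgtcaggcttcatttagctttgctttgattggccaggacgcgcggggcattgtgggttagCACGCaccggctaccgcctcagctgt
The Slc2a6 promoter held 4 such cores, that of Hk2 held 2, that of Hif1a held 3 and that of Taldo1 held 2. In Hif1a, 2 of the 3 overlap in the palindrome CACGTG, the E-box. A core was found in 30 of the 32 members with a promoter entry, against 46.7% of all 27025 genes with a promoter entry and 70.2% of the 5865 genes tested here that had an entry. The E-box was in 5 of the 32, against 8.09% of the 27025 genes and 12.6% of the genes tested. The 32 include 5 members that were not tested, and Bnip3 and Pfkm, which hold the E-box, are among them. The kappaB consensus, the site of the NF-kappaB factors, was in 1 of the 32, Vegfa, against 6.58% of the genes tested. These shares are not matched for base composition, and a match of letters is not a binding site.

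The libraries differed in depth and in how far they fitted their labels. Whole reads recovered from the deposited values came to 919338 to 1429509 per library in the siSmyd5-labelled and siCtl-labelled arms, against 420149 and 577054 in the siPhf2-labelled KLA and vehicle libraries. The ribosomal RNA precursor Rn45s took 71.6% and 66.7% of the reads of the siPhf2-labelled KLA and vehicle libraries, against 0.621% to 1.20% elsewhere, which left them 119144 and 192420 other reads, against at least 910906 elsewhere. The column totals printed for siPhf2 and siCtl fit each other's values, so either these names or these totals were exchanged, and every siRNA is named here only as the column is labelled. Smyd5 had 20 (KLA) and 9 (vehicle) reads in the siSmyd5-labelled libraries, against 29 and 44 in the siCtl-labelled ones. In scaled CPM it was at 14.2 (KLA) and 5.95 (vehicle), against 12.9 and 18.0, so it was lower with vehicle only. Its averaged difference did not pass the test (log2 -0.64, SE 0.42, edgeR quasi-likelihood, Benjamini-Hochberg adjusted p = 0.384). Phf2 was at 57.7 (KLA) and 118 (vehicle) scaled CPM in the siPhf2-labelled libraries, against 53.2 and 46.4 in the siCtl-labelled ones, so a knockdown of Phf2 was not seen in the libraries that carry its name. The KLA label was borne out, with Il1b at a log2 difference of 7.65 and Nos2 at 6.73. All 8 macrophage markers were present, with a sum of 4060 to 5379 scaled CPM with KLA and 3606 to 4954 with vehicle. The 5 fibroblast markers summed to 346 to 937 with KLA and 496 to 894 with vehicle, neutrophil, B cell, T and NK cell, mesothelial, eosinophil and mast cell markers stayed under 30 in every library, and the 6 erythroid markers had no read. In bulk RNA, fewer cells of a type and less RNA per cell cannot be told apart.

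Levels are given as scaled CPM, which is CPM computed on a library size adjusted by the TMM method, and between genes only per kilobase of transcript. Aldolase A (Aldoa), the cleavage enzyme of upper glycolysis, was the highest member, with a mean of 375.6 scaled CPM per kilobase over the 6 libraries. It was followed by the hexokinase Hk3 at 223, the transaldolase Taldo1 at 199, the phosphogluconate dehydrogenase Pgd at 146 and the pyruvate kinase Pkm at 126. The oxygen-sensing prolyl hydroxylases Egln1 and Egln3 were near the low end, at 4.92 and 2.45. A minimum mean of 10 reads per library was met by 28 of the 33 members. The other 5 were Gapdh, Pgam1, Pfkm (a mean of 3.67 reads), the mitophagy receptor Bnip3 (7.5 reads) and Pfkfb4 (9.67 reads).

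Gapdh, which every cell uses, was listed with 1 read in all 6 libraries together, and the phosphoglycerate mutase Pgam1 with 6. Pgk1, the phosphoglycerate kinase between them in the pathway, had a mean of 11 reads. Processed pseudogenes are known for Gapdh, Pgam1, Pgk1, Ldha, Eno1 and Tpi1 in the mouse, and how reads with several matches were counted is not given in the sources used here. The levels of these genes are therefore uncertain, and no statement is made on Gapdh or Pgam1. Pkm has 2 transcripts in the deposited table, with similar reads in each library, and the higher was used.

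**Figure D1:**
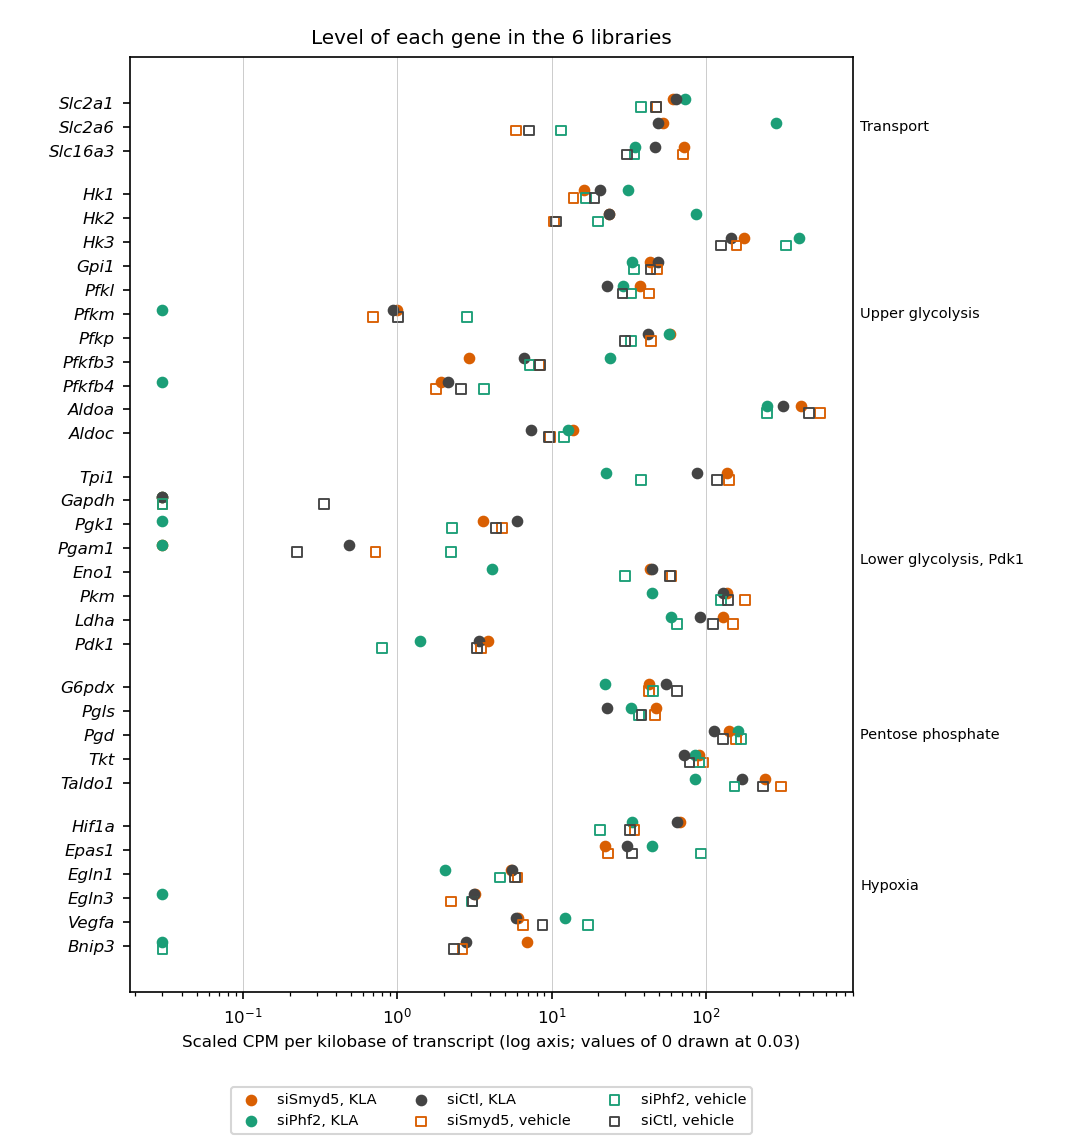
Level of each of the 33 genes in each library, in scaled CPM per kilobase of transcript on a log axis, grouped by role. Filled circles are KLA libraries, open squares vehicle libraries, colours the siRNA labels, and libraries without a read of a gene stand at the left edge. Slc2a6 and Hk2 have KLA values well to the right of the vehicle value of the same colour in all 3 colours, while Gapdh and Pgam1 lie at the left.

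With KLA, 3 of the 28 tested members rose and none fell in the fit over all 6 libraries with the siRNA as a term: the transporter Slc2a6, the hexokinase Hk2 and the factor subunit Hif1a. Among all 7995 genes tested, 11.2% rose and 4.60% fell, so 3 of 28 is close to the background. The median log2 difference of the members was -0.12, against -0.026 for all genes, with 13 members above 0 and 15 below. Only 2 residual degrees of freedom remain in that fit, and they mix noise between libraries with any unequal response to KLA under the 3 siRNAs. Without both siPhf2-labelled libraries the fit called 5 members higher and 6 lower, against 16.1% and 10.3% of all genes. That fit leaves only 1 residual degree of freedom, as does every fit without 1 library or without both libraries of a siRNA. For the KLA effect, leaving out 1 library also takes the other library of its arm out of the comparison. It is therefore nearly the same check as leaving out that arm.

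Uptake and export of sugar carbon were led by Slc2a6 (chr2:26876885-26883518 on mm9, minus strand), the glucose transporter family member GLUT6 of intracellular membranes. It was at 112 (siSmyd5-labelled), 606 (siPhf2-labelled) and 104 (siCtl-labelled) scaled CPM with KLA, against 12.6, 24.4 and 15.2 with vehicle. The 3 KLA libraries were all above the 3 vehicle libraries, and the siPhf2-labelled KLA library stood far above the others. On average KLA raised Slc2a6 by 3.24 on the log2 scale (SE 0.25, edgeR quasi-likelihood, Benjamini-Hochberg adjusted p = 7.02e-09). It was past the threshold under every alternative run, with 2.72 to 4.02.

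Slc2a1, the main glucose transporter of the plasma membrane (GLUT1), was at 157, 188 and 165 scaled CPM with KLA in the siSmyd5-, siPhf2- and siCtl-labelled libraries, against 123, 97.5 and 121 with vehicle. Every KLA library was above every vehicle library, but the averaged log2 difference of 0.49 (SE 0.19) did not pass the test (edgeR quasi-likelihood, Benjamini-Hochberg adjusted p = 0.102). Without both siPhf2-labelled libraries it was 0.38 and passed (adjusted p = 0.0123 in the same edgeR test). The lactate exporter Slc16a3 (MCT4) was at 179, 86.5 and 117 scaled CPM with KLA, against 176, 85.3 and 76.3 with vehicle. Its groups overlapped, and only the siCtl-labelled arm showed a KLA over vehicle ratio whose 95% counting interval excluded 1 (1.53, interval 1.26 to 1.86). Whether that arm differs from the others was not tested.

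Among the hexokinases, which trap glucose as its phosphate, Hk2 (chr6:82675021-82724448 on mm9, minus strand) was at 130.0, 476 and 129 scaled CPM with KLA in the siSmyd5-, siPhf2- and siCtl-labelled libraries, against 56.8, 109.7 and 59.1 with vehicle. All 3 KLA values were above all 3 vehicle values, with the siPhf2-labelled pair the highest of each. Averaged over the arms, the log2 difference of Hk2 was 1.37 (SE 0.20, edgeR quasi-likelihood, Benjamini-Hochberg adjusted p = 4.90e-05). It lost the call without a siRNA term (1.69, adjusted p = 0.238) and with limma on log2 values with 1 added (1.47, adjusted p = 0.0675). Hk3, a hexokinase prominent in myeloid cells, had a KLA over vehicle ratio of 1.12 to 1.21 in the 3 arms and an averaged log2 difference of 0.22 (SE 0.18) that did not pass (adjusted p = 0.492 in edgeR). Hk1, the housekeeping form, was at 0.25 (SE 0.19) and did not pass either.

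A share within 1 library does not depend on how libraries are scaled. Hk2 made up 17.0% (95% exact binomial interval 14.8 to 19.4), 25.2% (20.1 to 30.9) and 18.9% (17.0 to 21.0) of hexokinase reads with KLA in the siSmyd5-, siPhf2- and siCtl-labelled libraries, against 9.16% (7.39 to 11.2), 8.85% (5.91 to 12.6) and 11.0% (9.32 to 12.8) with vehicle. Per length, the share of Hk2 was 13.3% ± 3.02 with KLA and 6.01% ± 0.807 with vehicle (SD, n = 3 each), without overlap (2-sided exact permutation test p = 0.1, the smallest that 3 against 3 libraries allow, 0.233 after adjustment over 7 such tests). Hk3 still held most of the per-length hexokinase signal, 78.6% ± 2.71 with KLA and 85.9% ± 4.68 with vehicle (exact permutation p = 0.2). Reads are PCR products without molecular identifiers, so these intervals cover counting error only. The permutation tests of shares did not pair libraries by siRNA, and each SD spans 3 different siRNAs.

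Downstream, the phosphofructokinases catalyse the committed step. Pfkp, the platelet-type isoform, was at 232, 231 and 166 scaled CPM with KLA in the siSmyd5-, siPhf2- and siCtl-labelled libraries, against 174.5, 130.1 and 119 with vehicle. Within each arm KLA was the higher, but the siCtl-labelled KLA library lay below the siSmyd5-labelled vehicle library. Its averaged log2 difference of 0.52 (SE 0.19) did not pass (edgeR quasi-likelihood, Benjamini-Hochberg adjusted p = 0.0737) and was 0.43 and past the threshold without both siPhf2-labelled libraries (adjusted p = 0.00257 in edgeR). Pfkl, the liver-type isoform, was at -0.26 (SE 0.19). As a share of phosphofructokinase reads per length, Pfkp took 63.6% ± 3.03 with KLA and 49.3% ± 1.32 with vehicle (SD, n = 3 each), again without overlap (exact permutation p = 0.1, adjusted 0.233).

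The share of Slc2a6 in the sum of Slc2a1 and Slc2a6 per length was 56.4% ± 20.2 with KLA and 15.7% ± 6.51 with vehicle (SD, n = 3 each), without overlap (exact permutation p = 0.1, adjusted 0.233). The share of Hif1a against Epas1 was higher with KLA in each of the 3 arms, but its groups overlapped, at 62.0% ± 17.0 with KLA and 42.3% ± 21.6 with vehicle (exact permutation p = 0.3). The remaining shares, Pfkfb3 of Pfkfb3 and Pfkfb4 and Egln3 of Egln1 and Egln3, overlapped between agents (exact permutation p = 0.9 and 0.7), and Egln1 and Egln3 together had 1 read in the siPhf2-labelled KLA library.

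**Figure D2:**
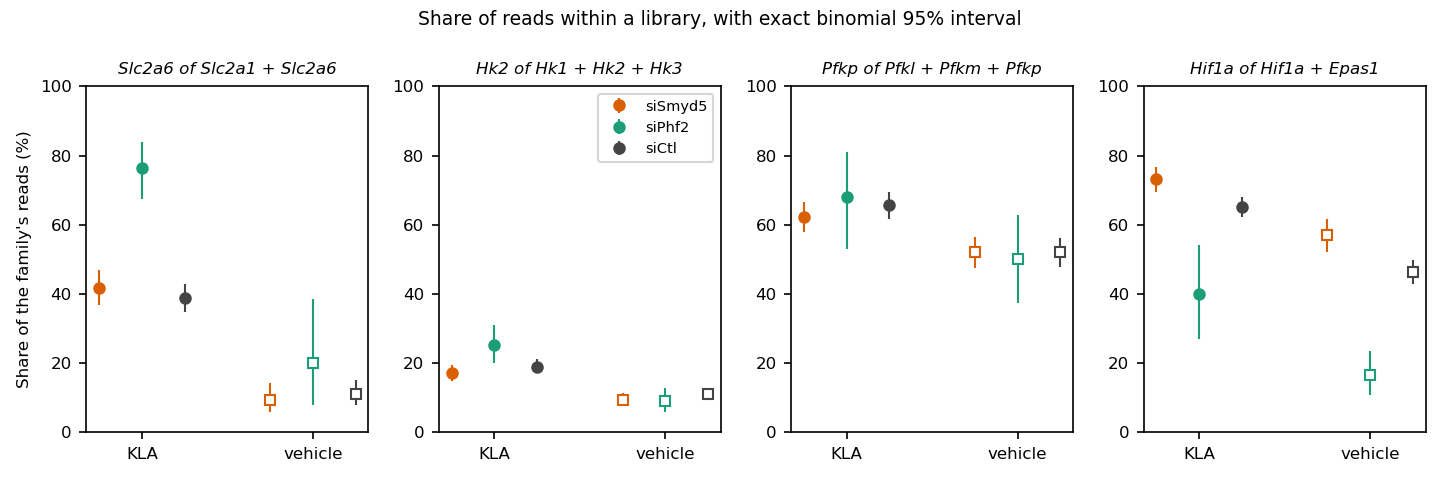
Share of 1 gene among the reads of its family in each library (percent), with exact binomial 95% intervals, for KLA libraries (filled circles) and vehicle libraries (open squares), coloured by siRNA label. For Slc2a6, Hk2 and Pfkp all 3 KLA points lie above all 3 vehicle points, while for Hif1a the siPhf2-labelled KLA library, at 40.0%, lies below 2 vehicle libraries.

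Pfkfb3, which makes the sugar phosphate that activates phosphofructokinase, differed between arms. It had 21, 17 and 76 reads with KLA in the siSmyd5-, siPhf2- and siCtl-labelled libraries, against 64, 9 and 105 with vehicle. The ratio of KLA over vehicle was 0.353 (95% counting interval 0.205 to 0.585) in the siSmyd5-labelled arm, 3.35 (1.41 to 8.53) in the siPhf2-labelled arm and 0.783 (0.575 to 1.06) in the siCtl-labelled arm. The intervals of the siSmyd5- and siPhf2-labelled arms lie on opposite sides of 1, and a test of the difference was not possible with 1 library each. Averaged over the arms it was at a log2 difference of -0.44 (SE 0.31), not past the threshold, and -0.76 without both siPhf2-labelled libraries (edgeR quasi-likelihood, Benjamini-Hochberg adjusted p = 0.00525). The table holds 8 transcripts of Pfkfb3, of which only the highest was used.

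Most other enzymes from aldolase to lactate were not higher with KLA. Aldoa was at 651, 397 and 500.5 scaled CPM with KLA in the siSmyd5-, siPhf2- and siCtl-labelled libraries, against 874, 394 and 740 with vehicle. Its KLA values were lower in the siSmyd5- and siCtl-labelled arms and level in the siPhf2-labelled arm, where the ratio was 1.01 (interval 0.709 to 1.41). Averaged over the arms, Aldoa was at a log2 difference of -0.37 (SE 0.19) and did not pass (edgeR quasi-likelihood, Benjamini-Hochberg adjusted p = 0.235). Without both siPhf2-labelled libraries Aldoa fell by 0.52 on the log2 scale (adjusted p = 1.06e-05 in edgeR, on 1 residual degree of freedom).

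In lower glycolysis none of the 6 tested members passed over all 6 libraries, with a median log2 difference of -0.25. The enolase Eno1 was at 76.7, 7.21 and 79.4 scaled CPM with KLA in the siSmyd5-, siPhf2- and siCtl-labelled libraries, against 105.7, 52.8 and 103.8 with vehicle. Each KLA value was below its vehicle partner, though the siPhf2-labelled pair rests on 1 and 13 reads. On the averaged log2 scale the differences were -0.49 for Eno1 (SE 0.21), -0.47 for Pkm (SE 0.22), -0.27 for the triose phosphate isomerase Tpi1 (SE 0.20) and -0.23 for the lactate dehydrogenase Ldha (SE 0.19). Without both siPhf2-labelled libraries, 3 of the 6 tested members fell in the edgeR fit, against 10.3% of all genes. They were Eno1 by 0.44, Ldha by 0.28 and Pkm by 0.27 on the log2 scale (Benjamini-Hochberg adjusted p = 0.0112, 0.0491 and 0.0379). Pdk1, the kinase that holds pyruvate dehydrogenase inactive, was at 0.10 (SE 0.29) and Pgk1 at 0.10 (SE 0.43).

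All 5 pentose phosphate members were below 0 in the averaged KLA effect, with a median log2 difference of -0.23, and none passed. Taldo1, which moves carbon units in the reversible branch, was at 306, 108 and 218 scaled CPM with KLA in the siSmyd5-, siPhf2- and siCtl-labelled libraries, against 390, 195 and 299.5 with vehicle. Every arm was lower with KLA, but the arms differed more from each other than the agents did, and the groups overlapped. The averaged log2 difference was -0.48 (SE 0.20, edgeR quasi-likelihood, Benjamini-Hochberg adjusted p = 0.122). It passed without both siPhf2-labelled libraries (-0.43, adjusted p = 0.00069 in edgeR) and when libraries were scaled to their total (-0.67, adjusted p = 0.0435), a scaling that moves the median of all genes to -0.19. Pgd and G6pdx, the NADPH-forming dehydrogenases, were at -0.14 (SE 0.19) and -0.23 (SE 0.20), the transketolase Tkt at -0.10 (SE 0.19) and the lactonase Pgls at -0.35 (SE 0.25).

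**Figure D3:**
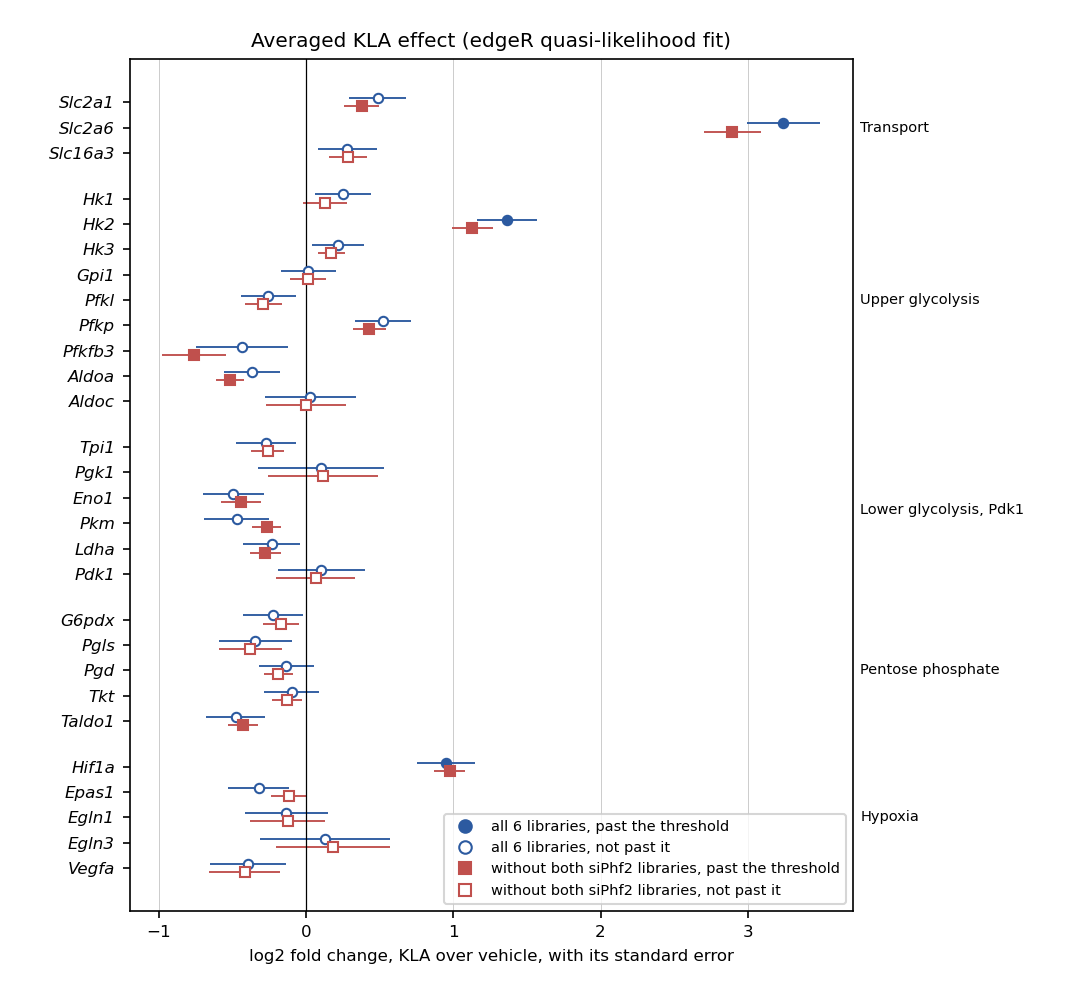
Averaged KLA effect of the 28 tested members as a log2 fold change of KLA over vehicle with its standard error, over all 6 libraries (blue circles) and without both siPhf2-labelled libraries (red squares). Filled symbols passed the edgeR threshold, and the reader should see 3 filled circles, all on the right, against 5 filled squares on the right and 6 on the left.

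Of the hypoxia members, Hif1a (chr12:75008854-75048517 on mm9, plus strand) was the 1 that rose. It was at 322.5, 159 and 309.7 scaled CPM with KLA in the siSmyd5-, siPhf2- and siCtl-labelled libraries, against 164, 97.5 and 153 with vehicle. Within each arm KLA was higher, but the siPhf2-labelled KLA value was below the siSmyd5-labelled vehicle value, so the groups overlap. The averaged log2 difference was 0.95 (SE 0.20, edgeR quasi-likelihood, Benjamini-Hochberg adjusted p = 0.00160). The Hif1a call was lost when any 1 of the 4 siSmyd5- or siCtl-labelled libraries was left out, with log2 differences of 0.86 to 0.90 and adjusted p of 0.268 to 0.332, and was kept without either siPhf2-labelled library. The call was also lost without both siSmyd5-labelled (0.87, adjusted p = 0.291 in edgeR) or both siCtl-labelled libraries (0.85, 0.302). Leaving out 1 library takes its arm out of the KLA comparison, so all these losses are in effect 1 check per arm. Each such fit leaves 1 residual degree of freedom. Hif1a also lost the call without a siRNA term (0.94, adjusted p = 0.378 in edgeR) and with limma and 1 added (0.89, 0.0571).

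Epas1, the other factor subunit, was at 119, 238 and 165.5 scaled CPM with KLA in the siSmyd5-, siPhf2- and siCtl-labelled libraries, against 124, 496 and 178 with vehicle. The siPhf2-labelled arm had a KLA over vehicle ratio of 0.480 (95% counting interval 0.316 to 0.710), beside 0.955 and 0.927 in the siSmyd5- and siCtl-labelled arms, whose intervals include 1, and whether the arms differ was not tested. The averaged log2 difference of -0.32 (SE 0.21) did not pass. Vegfa, the secreted angiogenic factor that hypoxia-inducible factors activate, was at -0.40 (SE 0.26), Egln1 at -0.13 (SE 0.28) and Egln3 at 0.13 (SE 0.44). Bnip3 had 17, 0 and 11 reads with KLA, against 7, 0 and 10 with vehicle, too few to test.

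Within single arms Slc2a6 and Hk2 led. A gene was called by size when its log2 ratio, with 2 reads added, was at least 1 in either direction and the 95% counting interval excluded 1. In the siSmyd5-labelled arm 2 members were higher, Slc2a6 and Hk2, and 1 was lower, Pfkfb3, against 8.74% and 3.50% of all genes. In the siPhf2-labelled arm 3 were higher, Slc2a6, Hk2 and Pfkfb3, and 3 lower, Eno1, Pkm and Epas1, against 8.31% and 6.65%. In the siCtl-labelled arm 3 were higher, Slc2a6, Hk2 and Hif1a, and none lower, against 7.18% and 2.68%.

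Slc2a6 had a KLA over vehicle ratio of 8.94 (interval 5.54 to 15.2) in the siSmyd5-labelled arm, 24.8 (10.9 to 69.6) in the siPhf2-labelled arm and 6.87 (4.84 to 10.0) in the siCtl-labelled arm. Hk2 had 2.29 (1.76 to 2.99), 4.34 (2.73 to 7.06) and 2.19 (1.78 to 2.69) in the same arms. Hif1a had 1.97 (1.68 to 2.31), 1.63 (0.869 to 3.03) and 2.02 (1.78 to 2.30), so its interval includes 1 in the siPhf2-labelled arm, where it rests on 22 and 24 reads. Whatever the size of the ratio, 6 members had intervals above 1 in both the siSmyd5- and the siCtl-labelled arm, against 13.9% of all genes: Slc2a1, Slc2a6, Hk2, Hk3, Pfkp and Hif1a. A further 4 had intervals below 1 in both arms, against 6.00%: Aldoa, Eno1, Ldha and Taldo1.

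**Figure D4:**
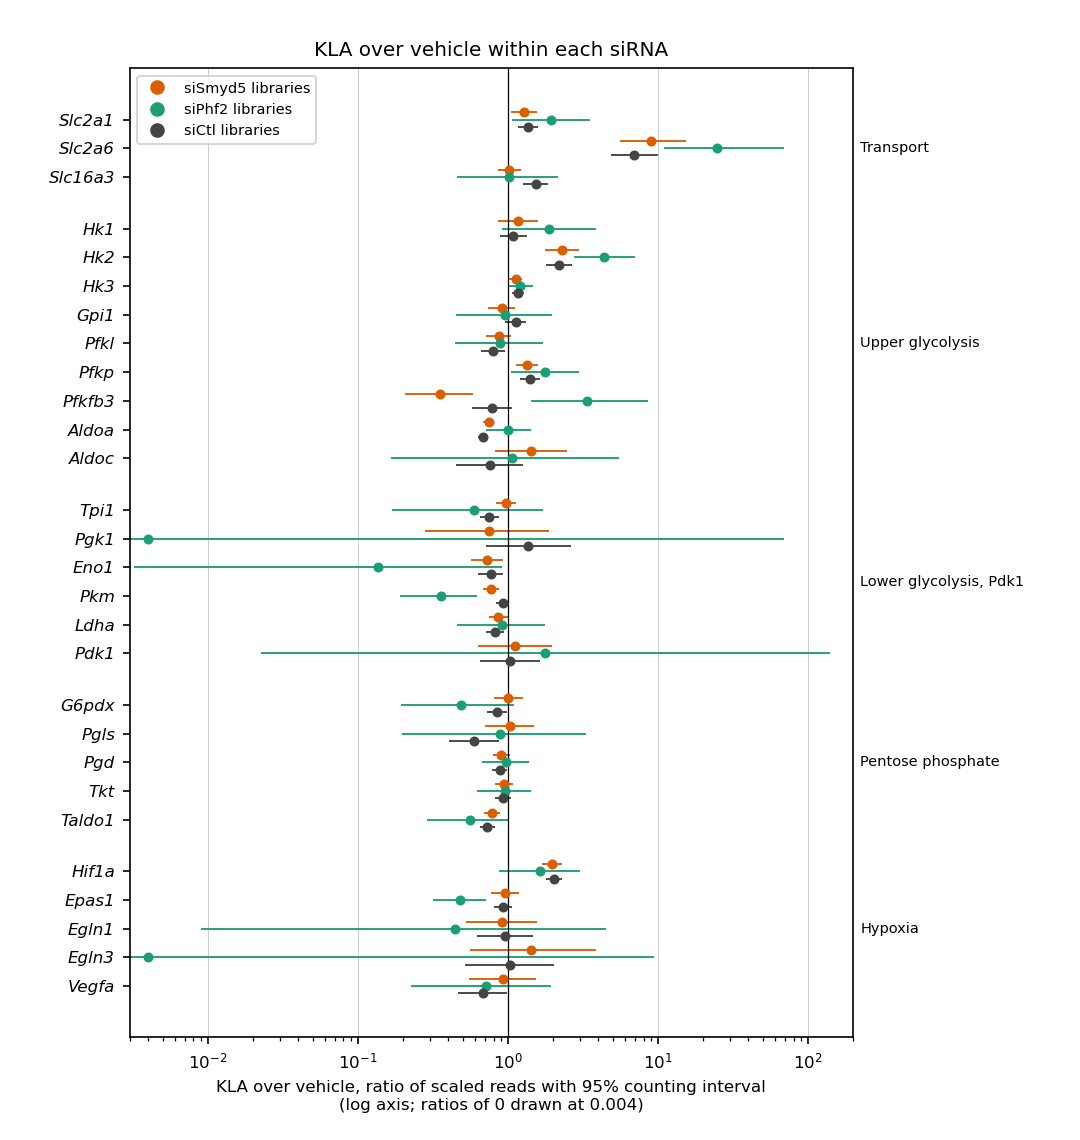
Ratio of scaled reads, KLA over vehicle, within the siSmyd5-, siPhf2- and siCtl-labelled arms, on a log axis with 95% counting intervals, for the 28 tested members, with ratios of 0 and bounds beyond the axis drawn at its left end. Slc2a6 and Hk2 lie right of 1 in all 3 arms, and Pfkfb3 lies left of 1 in the siSmyd5-labelled arm (0.353) and right of it in the siPhf2-labelled arm (3.35).

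Between siRNAs, the averaged siSmyd5 effect called 1 member higher, Slc16a3, and none lower, against 2.74% and 3.65% of all genes. This contrast also depends on the labels, since an exchange of the names siPhf2 and siCtl gives it other control libraries. With the names exchanged, 8 members were higher and 5 lower, against 943 and 1087 of the 7995 genes tested. Slc16a3 was at 179 (KLA) and 176 (vehicle) scaled CPM in the siSmyd5-labelled libraries, against 117 and 76.3 in the siCtl-labelled ones. Both siSmyd5-labelled values were above both siCtl-labelled values. The averaged log2 difference was 0.90 (SE 0.21, edgeR quasi-likelihood, Benjamini-Hochberg adjusted p = 0.0204). The Slc16a3 call was lost without any 1 of the 4 siSmyd5- or siCtl-labelled libraries (0.62 to 1.20, adjusted p of at least 0.998), with DESeq2 (0.91, adjusted p = 0.577), limma-voom (0.91, 0.0757), limma with 1 added (0.90, 0.865), libraries scaled to their total (0.82, 0.0644), reads summed over transcripts (0.91, 0.161) and a minimum mean of 50 reads (0.86, 0.0581).

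Smaller differences under siSmyd5 were spread over the pathway. Intervals of the siSmyd5 over siCtl ratio were above 1 under both agents for 10 members, against 9.96% of all genes: Hk3, Pfkl, Pfkp, Aldoa, Tpi1, Ldha, Slc16a3, Pgd, Tkt and Taldo1. Their ratios were 1.18 to 2.30 with vehicle and 1.22 to 1.63 with KLA. Intervals were below 1 under both agents for G6pdx and Epas1, against 8.62%. Without both siPhf2-labelled libraries the averaged edgeR fit, on 1 residual degree of freedom, called 11 members higher and 3 lower, against 13.3% and 14.2% of all genes. Among them were Pfkl at 0.60 and Slc16a3 at 0.87 higher and Epas1 at -0.54 lower.

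The siSmyd5 contrasts also followed transcript length, with a Spearman correlation of -0.469 (KLA) and -0.454 (vehicle) across the 7995 genes, which are not independent replicates. The siPhf2 contrasts followed it with the opposite sign, at 0.251 (KLA) and 0.354 (vehicle). The tested members had a median length of 2637 bases, against 2911 for all genes. By size, Slc16a3 was the 1 member higher with vehicle (2.30, interval 1.90 to 2.79) and none was lower, against 2.60% and 5.42%. With KLA, Pgls was higher (2.10, 1.40 to 3.17) and Pfkfb3 lower (0.442, 0.259 to 0.725), against 1.83% and 3.76%. With the trend on length taken off, the vehicle call of Slc16a3 stayed past the size bound, and neither Pgls nor Pfkfb3 did.

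The siPhf2-labelled libraries differed from the siCtl-labelled ones in 6 members on average, 4 higher (Slc2a6, Hk2, Hk3, Epas1) and 2 lower (Tpi1, Eno1), against 8.12% and 4.52% of all genes. Every one of these directions turns round if the names siPhf2 and siCtl were exchanged, and those of Slc2a6, Hk2, Hk3 and Epas1 also turn round when libraries are scaled to their total, which moves the median of all genes to -2.26, against -0.13 with TMM. Rn45s took most of the siPhf2-labelled reads. When it was left out of the totals before TMM scaling, the same 6 members passed with log2 differences within 0.01 of those given. TMM adjusts for a change of the totals, so this outcome was fixed in advance. The part of the Rn45s reads in these calls was not tested. The transcripts of the higher members were 2126 (Slc2a6), 5493 (Hk2), 3200 (Hk3) and 5336 (Epas1) bases long. Those of the lower members were 1594 (Tpi1) and 1764 (Eno1) bases long. The part of transcript length in these averaged calls was not tested.

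The averaged log2 difference was 2.18 (SE 0.31) for Slc2a6, 1.48 (SE 0.27) for Hk2 and 1.43 (SE 0.22) for Hk3, at edgeR quasi-likelihood p, Benjamini-Hochberg adjusted, of 9.44e-05, 0.00121 and 0.000229. Hk3 was at 1284 (KLA) and 1061 (vehicle) scaled CPM in the siPhf2-labelled libraries, against 467 and 401 in the siCtl-labelled ones, and its call held without any 1 library (1.39 to 1.47). The Slc2a6 difference rested on the siPhf2-labelled KLA library: it was 0.80 (adjusted p = 0.426) without it, and 1.36 (0.322) without the siCtl-labelled KLA library. Hk2 lost its call without the siCtl-labelled KLA library (1.19, adjusted p = 0.290).

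Epas1 was at 1.10 (SE 0.27, edgeR quasi-likelihood, Benjamini-Hochberg adjusted p = 0.00951), Tpi1 at -1.70 (SE 0.35, 0.00290) and Eno1 at -1.42 (SE 0.42, 0.0289). Epas1 passed without the siPhf2-labelled KLA library (1.48) and lost the call without each of the other 5 (0.52 to 1.25). Eno1 passed only without the siPhf2-labelled vehicle library (-3.43), where 1 read is left, and lost the call without each of the other 5 (-1.76 to -0.99). Tpi1 rests on 5 (KLA) and 15 (vehicle) reads in the siPhf2-labelled libraries, against 317 and 458 in the siCtl-labelled ones, and lost the call without the siCtl-labelled vehicle library (-1.61, adjusted p = 0.134). The macrophage markers summed to 5379 (KLA) and 4954 (vehicle) scaled CPM in the siPhf2-labelled libraries, against 4060 and 3606 in the siCtl-labelled ones, and the fibroblast markers to 346 and 496, against 937 and 894. The part of these marker levels in the result was not tested.

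By size, the siPhf2-labelled KLA library differed from its siCtl-labelled partner in 4 members higher, Slc2a6 (5.81, interval 4.47 to 7.48), Hk2 (3.69), Hk3 (2.75) and Pfkfb3 (3.64), and 4 lower, Tpi1, Eno1, Pkm and G6pdx (0.0908 to 0.403), against 7.85% and 7.24% of all genes. With vehicle, Hk3 (2.64) and Epas1 (2.78) were higher and Tpi1 (0.324) lower, against 10.8% and 8.87%. Under both agents the intervals were above 1 for Hk2, Hk3 and Pgd, against 6.02%, and below 1 for Tpi1, Eno1, Taldo1 and Hif1a, against 3.74%. The siSmyd5 and siPhf2 contrasts share the siCtl-labelled libraries.

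**Figure D5:**
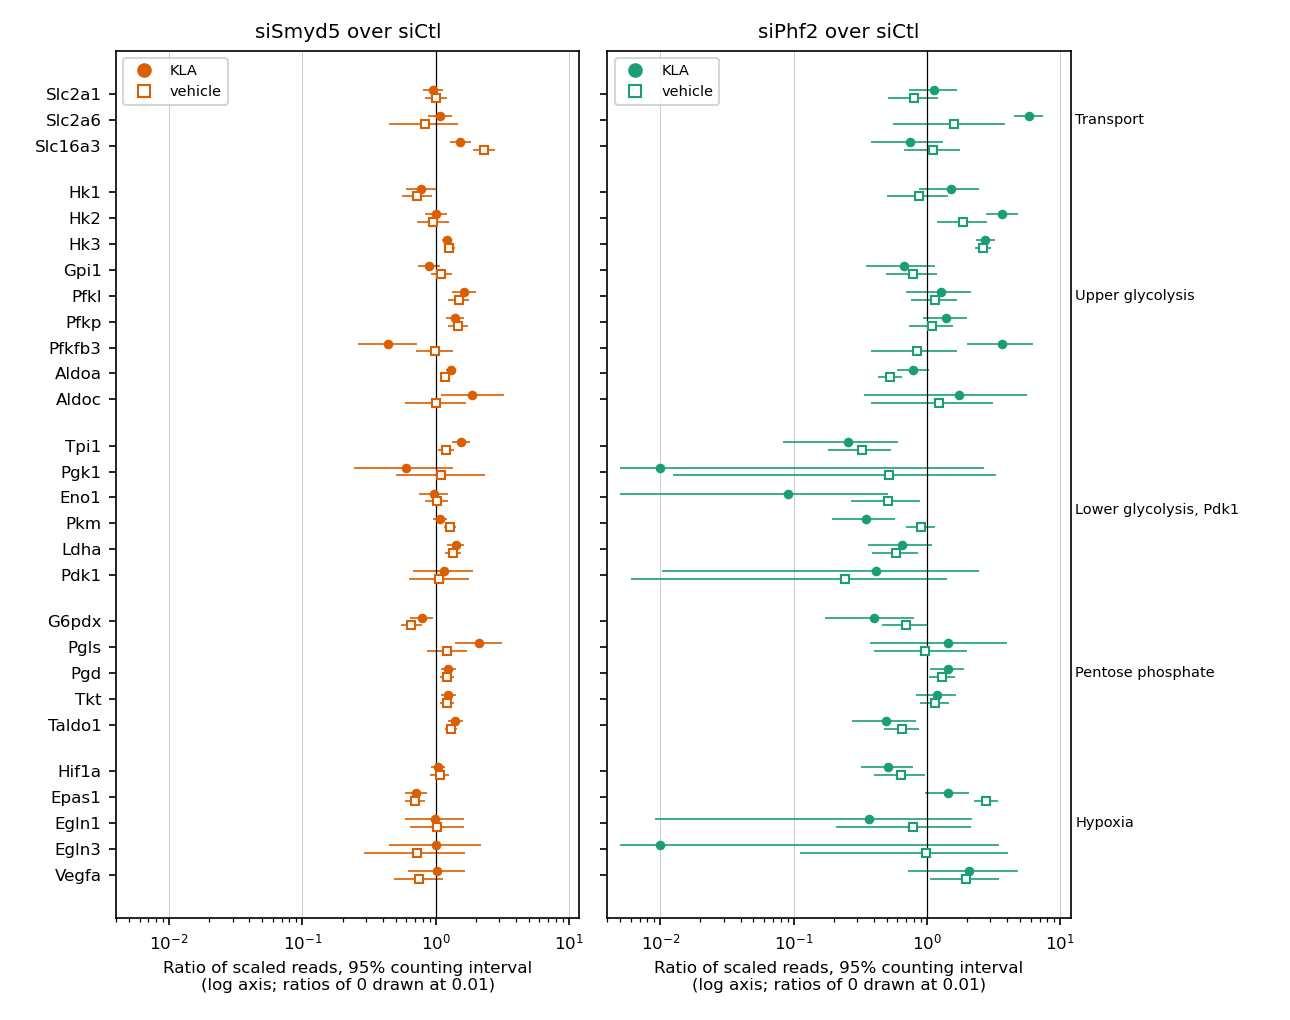
Ratio of scaled reads of the 28 tested members, siSmyd5-labelled over siCtl-labelled (left) and siPhf2-labelled over siCtl-labelled (right), with KLA (filled circles) and vehicle (open squares), on a log axis with 95% counting intervals that are cut at the left edge where they run beyond it. The siSmyd5 ratios lie between 0.442 and 2.30, and the siPhf2 ratios spread wider. If the names siPhf2 and siCtl were exchanged, the siPhf2 ratios turn round and the siSmyd5 ratios have other libraries as their control.

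Other genes of the same pathways were counted in the same edgeR fits, and their counts are set beside the same shares of all genes. With KLA, none of 20 tested further glycolysis genes (of 37 listed) and none of 5 further pentose phosphate genes (of 11) passed, against 11.2% of all genes higher and 4.60% lower. Without both siPhf2-labelled libraries 3 of the glycolysis genes were higher and 3 lower, and 1 pentose phosphate gene was lower, against 16.1% and 10.3%. Of 31 tested further hypoxia genes (of 46), 7 rose and 5 fell, against 11.2% and 4.60%, with a median log2 difference of -0.13. No test between the lists was made.

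The hypoxia genes with the largest values were the chemokine receptor Cxcr4 at -2.13 (SE 0.25), the growth factor Pdgfb at 2.12 (SE 0.43), the stress gene Ndrg1 at 1.65 (SE 0.20), the lysyl oxidase Lox at 1.51 (SE 0.32), Narf at -1.34 (SE 0.32) and the cytokine Mif at -1.33 (SE 0.31). Cxcr4 was at 55.4, 0 and 57.7 scaled CPM with KLA in the siSmyd5-, siPhf2- and siCtl-labelled libraries, against 266, 118 and 205 with vehicle, and Ndrg1 at 110, 72.1 and 90.1 with KLA, against 36.3, 16.3 and 28.7 with vehicle. Both genes were separated without overlap between the agents, and both calls held without any 1 library (-2.63 to -2.02 for Cxcr4, 1.62 to 1.77 for Ndrg1). Without a siRNA term both calls were lost (-2.17 and 1.69, adjusted p = 0.164 and 0.0507 in edgeR). Cxcr4 also lost its call with limma and 1 added (-3.65, 0.208). Pdgfb lost its call without either siCtl-labelled library (1.13 for each). Lox (1.74 to 1.86), Narf (-1.56 to -1.35) and Mif (-1.75 to -1.16) lost theirs without any 1 of the 4 siSmyd5- or siCtl-labelled libraries.

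Past pyruvate, 1 of 29 tested genes of pyruvate dehydrogenase and the citric acid cycle (of 34 listed) rose and 2 fell with KLA, against 11.2% and 4.60% of all genes. Pdp1, the phosphatase that switches pyruvate dehydrogenase on, was at 34.1, 14.4 and 35.1 scaled CPM with KLA in the siSmyd5-, siPhf2- and siCtl-labelled libraries, against 91.9, 32.5 and 73.0 with vehicle. Each KLA value was below its vehicle partner, though the siPhf2-labelled pair rests on 2 and 8 reads. The averaged log2 difference of Pdp1 was -1.22 (SE 0.21, edgeR quasi-likelihood, Benjamini-Hochberg adjusted p = 0.000249). The cytosolic isocitrate dehydrogenase Idh1 was at -0.76 (SE 0.23, adjusted p = 0.0258 in edgeR) and the shared dehydrogenase subunit Dld at 0.72 (SE 0.19, adjusted p = 0.0116 in edgeR). Pdp1 (-1.39 to -1.07), Idh1 (-1.32 to -1.05) and Dld (0.77 to 0.92) lost their calls without any 1 of the 4 siSmyd5- or siCtl-labelled libraries. Idh1 and Dld also lost theirs with DESeq2 (-1.10 and 0.73, adjusted p = 0.145 and 0.290) and reads summed over transcripts in edgeR (-0.96 and 0.74, 0.140 and 0.0613). Idh1 did so with limma-voom (-0.78, 0.0948) and a minimum mean of 50 reads (-0.82, 0.0655), and Dld with total scaling (0.57, 0.0804). Without a siRNA term, and with limma on log2 values (15.2 or 1 added), Pdp1, Idh1 and Dld all lost the call.

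In the averaged siSmyd5 effect 1 of the 20 further glycolysis genes was higher and 2 of the 31 hypoxia genes were lower, against 2.74% of all genes higher and 3.65% lower, and no gene of the table was called lower in that effect when any 1 siSmyd5- or siCtl-labelled library was left out. In the averaged siPhf2 effect 5 of 20 further glycolysis, 4 of 31 hypoxia and 2 of 29 citric acid cycle genes were lower. None of these lists had a gene that was higher, against 4.52% of all genes lower and 8.12% higher. The directions turn round if the names were exchanged. Most of the lower genes had at most 5 reads in each siPhf2-labelled library, and Mif had 0 in both.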

How the data were processed

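Poly(A) RNA was measured in 6 libraries, grouped by sample title. The authors deposited a signal: reads per RefSeq transcript scaled to 10000000 tags, per the file headers, which also give transcript length. HOMER and mm9 are named per the submitters' processing notes. Nothing in the sources used here gives the aligner or the handling of strand and of multiple matches. The members and lists were chosen with earlier results of these data known.

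Dividing each value by 10000000 over a header total gave whole reads (within 0.02) for 100% of values: with the column's own total for siSmyd5, and with the siPhf2 total for siCtl columns and the reverse. With their own totals 2.43% of siCtl, and 1.13% (vehicle) and 0.761% (KLA) of siPhf2 values came out whole. Names were kept as printed, and the exchange was an alternative. Since whole reads were recovered, the count model was used as the main test although the unit is a signal; limma on scaled values (15.2 or 1 added) was an alternative. Reads per library after 1 transcript per symbol was kept were 919338 (siSmyd5 KLA), 921925 (siSmyd5 vehicle), 420149 (siPhf2 KLA), 577054 (siPhf2 vehicle), 1429509 (siCtl KLA) and 1359270 (siCtl vehicle); 2 transcripts without a symbol were left out.

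The averaged effects came from edgeR 4.0.16 (R 4.3.3; quasi-likelihood, TMM, additive siRNA and agent terms, 2-sided, Benjamini-Hochberg threshold 0.05) over the 7995 genes whose mean reached 10 reads, after the script was tested on simulated data. DESeq2 1.42.0 and limma 3.58.1 were alternatives. Spread between single libraries, which may be technical, is all that p-values measure here. Contrasts of 1 library with 1 have no p-value, only exact conditional Poisson 95% intervals on reads, which cover counting error. All 33 members are accounted for. Of each other list, up to 6 genes past the averaged KLA threshold with the largest log2 fold change are named, as are Smyd5, Phf2, Il1b and Nos2.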

Additional observations from a re-analysis of the deposited data

Results flagged for a closer look

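Pfkfb3 moved in opposite directions with KLA in different siRNA arms. Its ratio of scaled reads, KLA over vehicle, was 0.353 in the siSmyd5-labelled arm, 3.35 in the siPhf2-labelled arm and 0.783 in the siCtl-labelled arm. Each arm has 1 library per agent, so the difference between arms was not tested. No group had the 4 libraries needed to look for a single library far from its group.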

How the results depend on the processing

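Each siRNA and agent had 1 library and the labels give no replicate numbers, so libraries could be paired only by siRNA. The siRNA term does this in the averaged fits. The share tests had no such term and compared 3 KLA with 3 vehicle libraries unpaired. Members higher and lower with KLA numbered 3 and 0; 1 fell when libraries were scaled to their total, 1 rose with limma (1 added) or with no siRNA term, and 5 and 6 passed without both siPhf2-labelled libraries. Leaving out 1 library gave 2 to 5 higher and 0 to 4 lower. For siSmyd5, 0 were higher with total scaling, a minimum of 50 reads, DESeq2, limma-voom, limma (either amount added) or summed transcripts; 11 and 3 were called without both siPhf2-labelled libraries, 8 and 5 with names exchanged, and 0 to 11 and 0 to 3 without 1 library. For siPhf2, total scaling gave 0 and 27, no read minimum 8 lower, limma 1 and 1 (either amount added), names exchanged 2 and 4, and a minimum of 50 reads, DESeq2, limma-voom, summed transcripts or no siSmyd5-labelled libraries 1 lower; leaving out 1 library gave 1 to 4 and 0 to 6. Scaled to the total, the siPhf2 values were -1.05 (Epas1), -0.70 (Hk2), -0.73 (Hk3) and -0.066 (Slc2a6); with names exchanged, by construction, 1.42 (Eno1), -1.10 (Epas1), -1.48 (Hk2), -1.43 (Hk3), -2.18 (Slc2a6) and 1.70 (Tpi1). By size (higher, lower), total scaling gave 1 higher for KLA in the siCtl-labelled arm, 5 lower for KLA in the siPhf2-labelled arm, 0 higher for siSmyd5 with KLA, and 0 and 22 (KLA) or 0 and 26 (vehicle) for siPhf2. A fold of 1.5 gave 1 lower (KLA, siCtl-labelled), 5 higher (KLA, siPhf2-labelled), 5 higher (siSmyd5, KLA), 1 lower (siSmyd5, vehicle) and 4 and 6 (siPhf2, vehicle). A minimum of 50 reads gave 0 lower (KLA, siSmyd5-labelled) and 0 and 0 (siSmyd5, KLA), the length trend taken off 0 and 0 (siSmyd5, KLA) and 2 lower (siPhf2, KLA), and exchanged names 7 and 4 (siSmyd5, KLA), 4 and 3 (siSmyd5, vehicle) and 1 and 2 (siPhf2, vehicle). The share of Hk2 (7.30 percentage points higher with KLA) was 10.7 without length scaling and 2.29 with transcripts summed, which counts shared reads repeatedly; that of Hk3 (-7.28) was -2.58 with transcripts summed. The share of Pfkfb3 (3.62) was -11.4 without both siPhf2-labelled libraries and -6.99 to 12.7 without 1 library (-0.767 without siPhf2 vehicle), and that of Egln3 (-9.36) was 5.82 and -15.6 to 2.84. The cause of these shifts was not tested except where construction gives it. Over the counts of members and the shares, 214 values kept side and direction, 76 moved and 5 reversed. Over the values of single genes, 597 stayed the same, 21 were stronger, 50 were weaker and 10 reversed. Depth limits the siPhf2-labelled arm, where a gene without a read may be present at up to 3 reads.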
